A study of Mus musculus with 11 samples.

Results

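The cells described here are mouse bone marrow monocytes cultured for 6 days, and the subject is a group of 10 genes for purinergic receptors and ectonucleotidases. They are P2ry12, P2ry13, P2ry14, P2ry6, P2ry2, Gpr34, P2rx4, P2rx7, Entpd1 and Nt5e, found by gene symbol in a table of 21860 genes by bulk RNA sequencing. All 10 were in the table and all 10 passed the filter on low values. CD11b-low EpCAM+ cells were sorted from each culture, EpCAM being an adhesion molecule of Langerhans cells, the phagocytes of the epidermis. The members were chosen by name, with their normalized counts across these same 5 culture groups already known and no threshold set. The p-values below are those of a fit over all genes and are no independent evidence that the group stands out.

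Every culture received GM-CSF (20 ng/ml), a growth factor for monocytes. Jag1 only cultures (n = 1) received Jagged-1 (Jag1) and nothing more, and the other 10 samples had TGFβ (5 ng/ml) and IL-34 (8 µg/ml) added. These were TGFβ/IL-34 alone (n = 2), with FICZ (n = 2), with Jag1 (n = 3) and with both (n = 3), named TGFβ/IL-34, TGFβ/IL-34/FICZ, TGFβ/IL-34/Jag1 and, last, TGFβ/IL-34/Jag1/FICZ. Jag1, a ligand of Notch receptors, was supplied by OP9-Jag1 cells, a mouse stromal line made to carry it. The labels call every sample an OP9 co-culture, whereas the scheme of the study shows cultures without Jag1 as monocytes only. OP9 cells without Jag1 are not among the samples, so an effect of Jag1 and one of stroma cannot be told apart. FICZ is a ligand of the aryl hydrocarbon receptor (Ahr), called an agonist by the study and an antagonist in the deposited design text, and its dose is not given in the sources used here.

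Cells release ATP, ADP and UTP under stress and use them as signals. P2X receptors are ion channels opened by ATP, and P2Y receptors are G protein-coupled receptors, most of which bind nucleotides. On the cell surface CD39 (Entpd1) removes phosphates from ATP and ADP to give AMP, and CD73 (Nt5e) turns AMP into adenosine, which acts on receptors of its own. CD39 is a known surface enzyme of Langerhans cells, and P2ry12, P2ry13 and Gpr34 are familiar as genes of microglia.

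In GRCm39 the members lie on 6 chromosomes, several of them side by side. Nt5e is at chr9:88209089-88254146 on the plus strand and Entpd1 at chr19:40600810-40731585, also plus. P2rx7 (chr5:122781942-122830400, plus) is followed after 15.1 kb by P2rx4 (chr5:122845541-122867803, plus). P2ry6 (chr7:100585308-100624173, minus) and P2ry2 (chr7:100640649-100663957, minus) are 16.5 kb apart. P2ry14 (chr3:59021276-59061134), P2ry13 (chr3:59114539-59118304) and P2ry12 (chr3:59123682-59170429) are all on the minus strand inside Med12l, which is transcribed the other way. Gpr34 (chrX:13489625-13507116, plus) lies inside Cask on the opposite strand. P2ry12 shares exon bases with Med12l, and P2rx7, P2rx4, P2ry2, P2ry14 and Entpd1 each share some with a gene model on the other strand. P2rx7 also holds Mir8115 on its own strand. Whether reads were assigned by strand is not given in the sources used here, so the levels of these 6 genes are uncertain to that extent.

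The 250 bases before the start of the canonical transcript are shown for the 3 genes that passed the test in a comparison (Nt5e, P2rx7 and P2ry6) and for P2ry13, the member with matches to the Ahr motif. They were read from the GRCm39 genome, 5′ to 3′ on the strand of the gene. The P2ry6 window lies inside the annotated P2ry6 gene, which extends further upstream. Overlap of the windows with annotated exons was not tested. Capitals mark the core of the motif bound by Ahr with its partner ARNT (GCGTG) and the motif of the Notch-dependent factor RBPJ (TGGGAA), on either strand.
Nt5e (chr9:88208839-88209088, plus): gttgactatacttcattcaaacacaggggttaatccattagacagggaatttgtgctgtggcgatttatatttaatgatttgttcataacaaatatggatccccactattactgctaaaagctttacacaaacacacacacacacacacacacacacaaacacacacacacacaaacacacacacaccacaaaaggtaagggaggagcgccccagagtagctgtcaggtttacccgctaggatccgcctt
P2rx7 (chr5:122781692-122781941, plus): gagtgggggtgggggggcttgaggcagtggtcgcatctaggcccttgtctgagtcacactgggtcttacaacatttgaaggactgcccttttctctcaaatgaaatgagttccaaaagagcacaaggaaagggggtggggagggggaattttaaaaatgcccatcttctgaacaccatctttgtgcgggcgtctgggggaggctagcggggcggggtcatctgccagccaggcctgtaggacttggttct
P2ry6 (chr7:100613661-100613910, minus): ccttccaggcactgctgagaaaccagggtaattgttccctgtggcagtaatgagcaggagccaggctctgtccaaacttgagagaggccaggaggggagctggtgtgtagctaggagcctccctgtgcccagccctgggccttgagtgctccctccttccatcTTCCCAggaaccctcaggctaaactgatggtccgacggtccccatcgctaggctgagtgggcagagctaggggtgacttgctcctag
P2ry13 (chr3:59118305-59118554, minus): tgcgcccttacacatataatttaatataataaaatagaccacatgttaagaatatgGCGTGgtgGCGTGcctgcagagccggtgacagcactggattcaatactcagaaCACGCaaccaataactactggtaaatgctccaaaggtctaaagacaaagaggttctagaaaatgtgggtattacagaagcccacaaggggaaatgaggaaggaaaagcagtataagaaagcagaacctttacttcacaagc

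GCGTG was found in 40.0% of 13054 promoters of the same length, its longer form TNGCGTG in 6.36% and TGGGAA in 21.9%. P2ry13 was the only member with GCGTG, at 194 to 190, 186 to 182 and, on the reverse strand, 141 to 137 bases upstream. All 3 also matched TNGCGTG, which contains the core. P2ry6 held 1 TGGGAA, read as TTCCCA at 87 to 82 bases upstream. Nt5e and P2rx7 had none of these letters in the window. A match is a description of the sequence, not a binding site.

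Depth was estimated at 20.6 to 24.3 M reads per sample, with 1 read worth 0.894 to 1.15 normalized counts. Epcam stood at 3952 to 14377 in the 10 samples with TGFβ/IL-34 and at 657 in Jag1 only, while Cd207, which encodes langerin and marks Langerhans cells, was at 1366 to 1784 in TGFβ/IL-34/Jag1 and at 6.21 to 157 elsewhere. Cyp1a1, the classical Ahr target, was at 604 to 2079 in the 5 FICZ samples and at 0 to 100 in the other 6. Of these, TGFβ/IL-34 held 68.1 and 100, and TGFβ/IL-34/Jag1 at most 0.985. Cyp1b1, another Ahr target, did not split by FICZ. It was at 2570 and 2556 in TGFβ/IL-34, 1.04 to 4.76 in TGFβ/IL-34/Jag1, 40.9 in Jag1 only and 2384 to 7391 with FICZ. The Ahr targets Ahrr and Tiparp were also lower in TGFβ/IL-34/Jag1 than in the other groups with TGFβ/IL-34. The TGFβ/IL-34/FICZ pair was the least alike of all same-group pairs (Pearson r 0.922 across genes, against 0.963 to 0.980 for the other 7). In the sample description its replicate 1, like replicate 1 of TGFβ/IL-34/Jag1/FICZ, carries another code than the other samples. The code may stand for a flow cell, which the labels do not say. For Nt5e, P2rx7 and P2ry6, values that rest on this pair are given with and without each of its samples.

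Nt5e, P2rx7 and P2ry6 were the members that passed the test in a comparison of cultures. In a limma fit over 13095 genes with Benjamini-Hochberg adjustment, 2 of the 10 members (Nt5e and P2rx7) were lower in TGFβ/IL-34/Jag1 than in TGFβ/IL-34 and none was higher, where 3.96% of all genes tested were lower and 2.64% higher (6.6% in either direction). Adding FICZ to the Jag1 cultures gave 2 members higher (Nt5e and P2rx7) and 1 lower (P2ry6), beside 10.9% and 6.71% of all genes (17.7% in either direction). These comparisons share the 3 TGFβ/IL-34/Jag1 samples. Without Jag1, FICZ gave no member past the threshold in the limma fit, with 3 at an unadjusted p under 0.05, and 0.0229% of genes passed (0.0153% higher and 0.00764% lower), which is 3 genes, against 2284 at an unadjusted p under 0.05. Between the 2 FICZ groups, no member passed by limma, where 2.02% of all genes passed (1.41% higher and 0.603% lower). In that comparison 1 of the 10 members was at an unadjusted p under 0.05, as were 3039 of the 13095 genes. The median log2 fold change of the members was −0.78 with Jag1 and 0.59 with FICZ in the presence of Jag1, where the medians over all genes tested were −0.00 and −0.01. It was −0.22 with FICZ in the absence of Jag1 and −0.24 with Jag1 in the presence of FICZ. There the medians over all genes tested were −0.02 and 0.05.

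**Figure D1:**
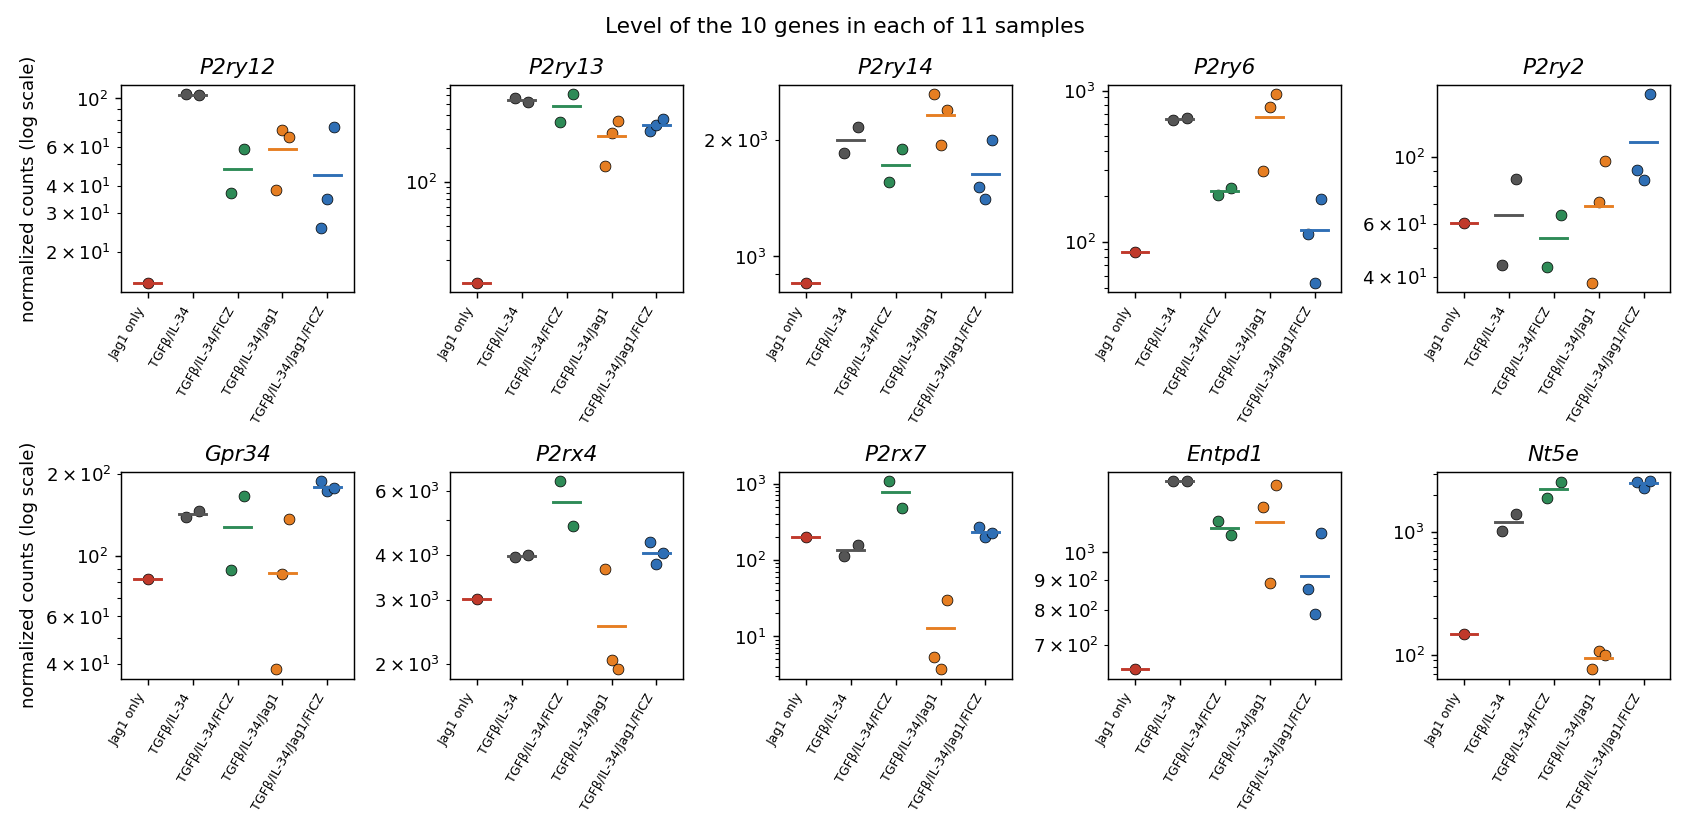
Normalized counts (log axis, its range set per gene) of the 10 genes in each of the 11 samples by culture group, each point a sample and each bar the group mean. The Nt5e points of TGFβ/IL-34/Jag1 (76.0 to 107) lie below those of every other group, as do those of P2rx7 (3.72 to 29.9).

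Nt5e encodes CD73, the enzyme that makes adenosine from AMP. Its level was 1023 and 1404 normalized counts in TGFβ/IL-34 and 76.0, 107 and 99.6 in TGFβ/IL-34/Jag1. FICZ samples stood at 1916 and 2593 without Jag1 and at 2599, 2313 and 2622 with Jag1, and the Jag1 only sample at 147. The samples without FICZ that had Jag1 were thus the lowest, with no overlap with any group, and all 5 FICZ samples were above both TGFβ/IL-34 samples. In order of the mean, TGFβ/IL-34/Jag1/FICZ (2511 ± 172, SD, n = 3) and TGFβ/IL-34/FICZ (2254 ± 479, n = 2) overlapped, followed without overlap by TGFβ/IL-34 (1214 ± 270, n = 2), Jag1 only, and TGFβ/IL-34/Jag1 (94.2 ± 16.1, n = 3).

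Nt5e fell by 3.67 on the log2 scale with Jag1 (SE 0.23, limma adjusted p 4.11e-05), a 12.7-fold lower level on the log2(value + 1) scale. With Jag1 present, it rose by 4.73 with FICZ (SE 0.21, adjusted p 1.10e-06), a 26.6-fold difference. Without Jag1, the FICZ difference was 0.89 (95% interval 0.34 to 1.45, adjusted p 0.285), and it was 1.11 without replicate 1 and 0.68 without replicate 2 of the FICZ samples. The FICZ difference was larger with Jag1 than without by 3.84 (SE 0.32, limma interaction adjusted p 0.00174), and Nt5e was the only member to pass that test, beside 1.17% of all genes with a larger and 0.221% with a smaller FICZ difference in the presence of Jag1 (1.39% in all). The test was passed with each of the 10 samples left out in turn, at 3.61 to 4.07. The 2 FICZ groups differed by 0.17 (95% interval −0.34 to 0.68, adjusted p 0.657), and by −0.05 without replicate 1 and 0.39 without replicate 2 of the FICZ samples that had no Jag1. Within experiment codes, the difference with Jag1 was −3.25 and −3.80 in the 2 codes that hold both groups by the sample description, and that with FICZ in the presence of Jag1 was 5.08, 4.42 and 4.70 in 3 codes.

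Entpd1 encodes CD39, which acts upstream of CD73. It stood at 1318 and 1319 in TGFβ/IL-34, at 1191, 888 and 1296 in TGFβ/IL-34/Jag1, at 1130 and 1070 in TGFβ/IL-34/FICZ, and at 869, 788 and 1079 in TGFβ/IL-34/Jag1/FICZ. The ranges of the groups with TGFβ/IL-34 lay close together, and the Jag1 only sample was lowest at 636. No difference passed, with −0.25 for Jag1 (95% interval −0.71 to 0.21, adjusted p 0.617) and −0.30 for FICZ with Jag1 (−0.71 to 0.12, adjusted p 0.333). The intervals therefore reach less than 1 log2 unit in either direction, where Nt5e in the same comparisons moved by 3.67 and 4.73.

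P2rx7 encodes P2X7, the ATP-gated channel that needs high ATP and is known upstream of the NLRP3 inflammasome. Its level was 113 and 158 in TGFβ/IL-34 and 5.41, 3.72 and 29.9 in TGFβ/IL-34/Jag1, the first 2 of which correspond to about 4.80 and 3.59 reads. In the FICZ samples it was 1076 and 473 without Jag1 and 272, 201 and 228 with Jag1, and in Jag1 only it was 200. No groups next to each other in order of the mean overlapped, with TGFβ/IL-34/FICZ highest, Jag1 only just below the lowest sample with both agents and TGFβ/IL-34/Jag1 lowest, and 1 of the 3 lowest samples (replicate 3) stood well above the other 2.

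P2rx7 fell by 3.78 on the log2 scale with Jag1 (SE 0.70, limma adjusted p 0.0100). This call needed both TGFβ/IL-34 samples, since the adjusted p was 0.0668 without replicate 1 and 0.124 without replicate 2. It rose by 4.57 with FICZ in the presence of Jag1 (SE 0.62, adjusted p 0.000770), a 23.8-fold difference, and by 5.41, 5.42 and 2.89 within the 3 experiment codes. Without Jag1 the FICZ difference was 2.41 (95% interval 0.71 to 4.10, adjusted p 0.285). It was 3.00 when only replicate 1 of the FICZ samples was kept and 1.82 when only replicate 2 was. Each of these leaves 1 sample in that group, so no p-value is given. The FICZ differences with and without Jag1 differed by 2.17 (95% interval −0.02 to 4.36, interaction adjusted p 0.268), or by 2.76 without replicate 1 and 1.57 without replicate 2 of the FICZ samples that had no Jag1. The 2 FICZ groups differed by −1.62 (adjusted p 0.204), or by −1.03 and −2.21 without the same samples.

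P2rx4 encodes P2X4, a channel of the cell surface and lysosomes, and had the highest counts of the group. It stood at 3960 and 4006 in TGFβ/IL-34, at 3652, 2060 and 1939 in TGFβ/IL-34/Jag1, at 6386 and 4801 in TGFβ/IL-34/FICZ, at 4347, 3766 and 4046 in TGFβ/IL-34/Jag1/FICZ and at 3035 in Jag1 only. Samples with Jag1 and no FICZ were below all samples of the other groups with TGFβ/IL-34. The differences had the signs of those of P2rx7 but were smaller and did not pass in the fit as designed, at −0.70 with Jag1 (95% interval −1.28 to −0.13, limma adjusted p 0.161) and 0.73 with FICZ in the presence of Jag1 (0.21 to 1.24, adjusted p 0.0560). The second lay near the threshold. It passed in 6 of 10 other settings (adjusted p 0.00180 to 0.0973), among them the replicate number as a block, which pairs these groups (0.0373), and with 1 of 6 samples left out, replicate 1 of TGFβ/IL-34/Jag1 (0.00459, against up to 0.186). The first passed in 2 of 10 other settings and with the same sample left out (0.0192).

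P2ry6 encodes a receptor for UDP that is linked to phagocytosis in microglia. Its level was 639 and 661 in TGFβ/IL-34, 292, 782 and 944 in TGFβ/IL-34/Jag1, 206 and 227 in TGFβ/IL-34/FICZ, and 113, 54.0 and 194 in TGFβ/IL-34/Jag1/FICZ. All 5 FICZ samples were below all 5 samples with TGFβ/IL-34 and no FICZ, and the Jag1 only sample was at 85.5. It fell by 2.49 on the log2 scale with FICZ in the presence of Jag1 (SE 0.50, limma adjusted p 0.00634), a 5.62-fold lower level, and by 1.37, 3.83 and 2.28 within the 3 experiment codes. Without Jag1 the FICZ difference was −1.58 (95% interval −2.94 to −0.23, adjusted p 0.285), and −1.51 or −1.65 without replicate 1 or 2 of those FICZ samples. The difference with Jag1 was −0.12 (95% interval −1.35 to 1.12, adjusted p 0.953), and its sign depended on the samples and blocks used.

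**Figure D2:**
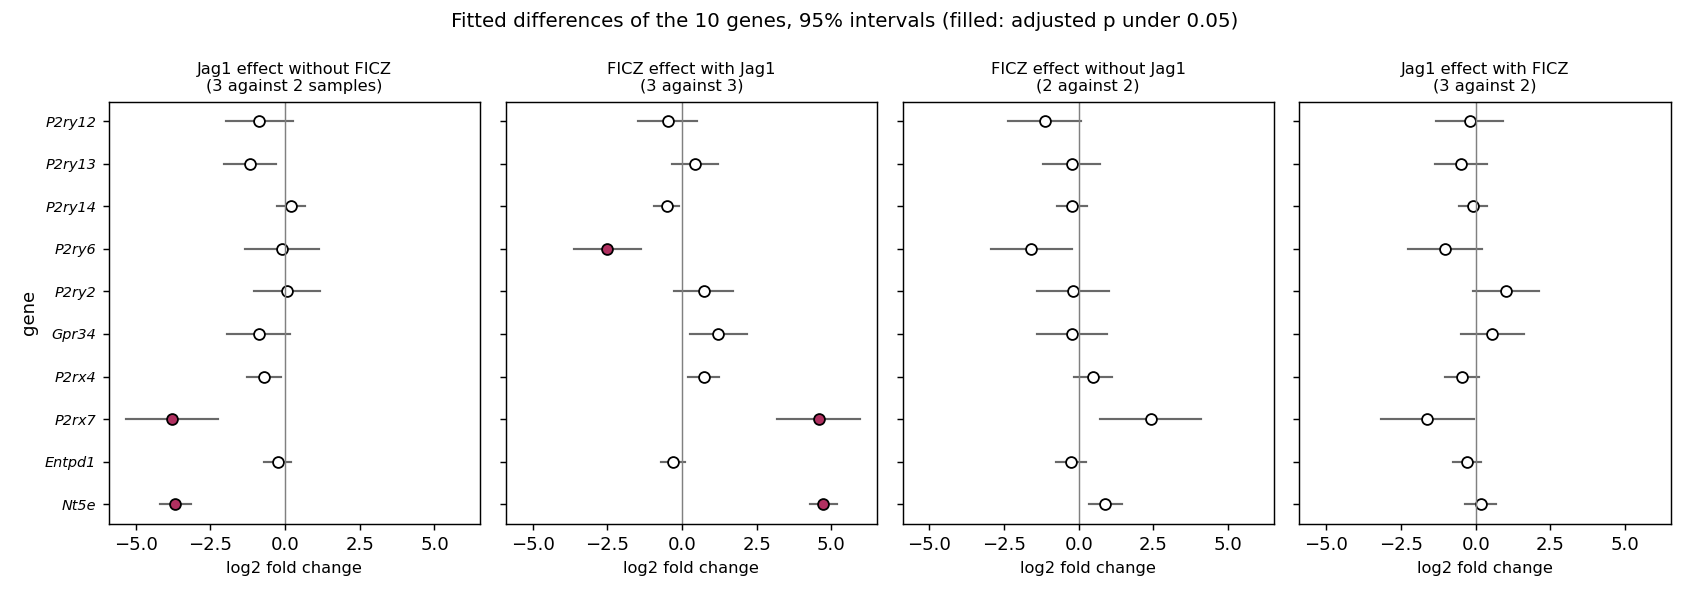
Fitted log2 fold changes (points) with 95% intervals (lines) of the 10 genes in 4 comparisons, filled where the limma adjusted p was under 0.05. Nt5e and P2rx7 are filled at −3.67 and −3.78 for Jag1 without FICZ and at 4.73 and 4.57 for FICZ with Jag1, P2ry6 is filled at −2.49 for FICZ with Jag1, and no point is filled in the other 2 comparisons.

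P2ry12, P2ry13 and P2ry14 are neighbouring genes of the Gi-coupled P2Y receptors, the first 2 for ADP and P2ry14 for UDP-sugars. P2ry12 was low, at 104 and 104 in TGFβ/IL-34, 38.3, 71.5 and 67.0 in TGFβ/IL-34/Jag1, 37.2 and 58.6 in TGFβ/IL-34/FICZ, 25.6, 34.8 and 74.3 in TGFβ/IL-34/Jag1/FICZ, and 14.4 in Jag1 only. The TGFβ/IL-34 samples were above all others, and the remaining groups with TGFβ/IL-34 overlapped. Differences were −0.86 with Jag1 (95% interval −1.98 to 0.25, limma adjusted p 0.417) and −0.48 with FICZ in the presence of Jag1 (−1.47 to 0.52, adjusted p 0.546).

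P2ry13 stood at 571 and 521 in TGFβ/IL-34, at 348 and 614 in TGFβ/IL-34/FICZ, at 139, 278 and 355 in TGFβ/IL-34/Jag1 and at 287, 327 and 370 in TGFβ/IL-34/Jag1/FICZ. The Jag1 only sample, at 12.4, was lowest, and the next lowest sample held 139. The groups with TGFβ/IL-34 formed a chain in which each overlapped the next, and the Jag1 difference was −1.18 (95% interval −2.05 to −0.32, limma adjusted p 0.115). The 3 GCGTG matches before its start are shown above, and its FICZ difference in the presence of Jag1 was 0.44 (95% interval −0.33 to 1.22, adjusted p 0.454).

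P2ry14 had the highest counts of the P2Y genes among the 10 members, at 1847 and 2164 in TGFβ/IL-34, 2624, 1940 and 2387 in TGFβ/IL-34/Jag1, 1557 and 1899 in TGFβ/IL-34/FICZ and 1511, 1405 and 1998 in TGFβ/IL-34/Jag1/FICZ. Groups next to each other in order of the mean overlapped, except Jag1 only, which was lowest at 857. The differences were 0.20 with Jag1 (95% interval −0.26 to 0.66, limma adjusted p 0.70) and −0.51 with FICZ in the presence of Jag1 (−0.92 to −0.09, adjusted p 0.0923).

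P2ry2, a receptor for ATP and UTP, stood between 38.4 and 161 in all samples, and all neighbouring groups overlapped. It was at 44.0 and 84.9 in TGFβ/IL-34, at 38.4, 71.0 and 96.7 in TGFβ/IL-34/Jag1, at 90.6, 83.8 and 161 in TGFβ/IL-34/Jag1/FICZ, at 43.2 and 64.5 in TGFβ/IL-34/FICZ and at 60.3 in Jag1 only. The difference with FICZ in the presence of Jag1 was 0.73 (95% interval −0.26 to 1.71, limma adjusted p 0.319), and that with Jag1 was 0.07 (−1.03 to 1.17, adjusted p 0.966) with a sign that depended on the samples used.

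Gpr34 is a relative of the P2Y receptors that responds to lysophosphatidylserine. It was tightly grouped in TGFβ/IL-34/Jag1/FICZ (189, 174 and 178) and in TGFβ/IL-34 (139 and 147), wider in TGFβ/IL-34/FICZ (88.6 and 167) and TGFβ/IL-34/Jag1 (38.4, 85.7 and 136), and at 82.1 in Jag1 only. The samples with Jag1 and FICZ were above all others. The differences were 1.22 with FICZ in the presence of Jag1 (95% interval 0.27 to 2.17, limma adjusted p 0.0794, which passed at 0.0288 without replicate 3 of TGFβ/IL-34/Jag1) and −0.89 with Jag1 (−1.95 to 0.18, adjusted p 0.376).

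The Jag1 only sample shows the group without TGFβ and IL-34, with no replicate and so no test. Compared with TGFβ/IL-34/Jag1, 4 of the 10 members were at least 2-fold lower in it and below the range of the 3 samples, and 1 was at least 2-fold higher and above that range, where 12.6% and 15.8% of all genes tested did so (28.4% in all). The 4 were P2Y genes. The log2 difference of the TGFβ/IL-34/Jag1 mean from it was 4.16 for P2ry13, 2.80 for P2ry6, 1.91 for P2ry12 and 1.42 for P2ry14. P2rx7 went the other way, at 200 in Jag1 only against 3.72 to 29.9, a difference of −4.36. Nt5e was at 147 against 76.0 to 107, a difference of −0.65, so the 2 groups with Jag1 and no FICZ held the lowest Nt5e levels of the series.

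Divided by the length of the canonical transcript, the group means of the members spanned 2.62 to 2021 normalized counts per kb. P2rx4 (921 to 2021) and P2ry14 (477 to 1291) were the highest members in all 5 groups. P2ry2 (6.42 to 13.3) was below the other 9 members in TGFβ/IL-34, TGFβ/IL-34/FICZ and TGFβ/IL-34/Jag1/FICZ. Of the ectonucleotidases, Nt5e was above Entpd1 per kb in TGFβ/IL-34/Jag1/FICZ (604 against 158), in TGFβ/IL-34/FICZ (542 against 191) and in TGFβ/IL-34 (292 against 229), and below it in TGFβ/IL-34/Jag1 (22.7 against 195) and Jag1 only (35.4 against 110). The order of the 2 surface enzymes by transcript level thus differed between cultures, and it rests on 1 transcript length per gene.

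**Figure D3:**
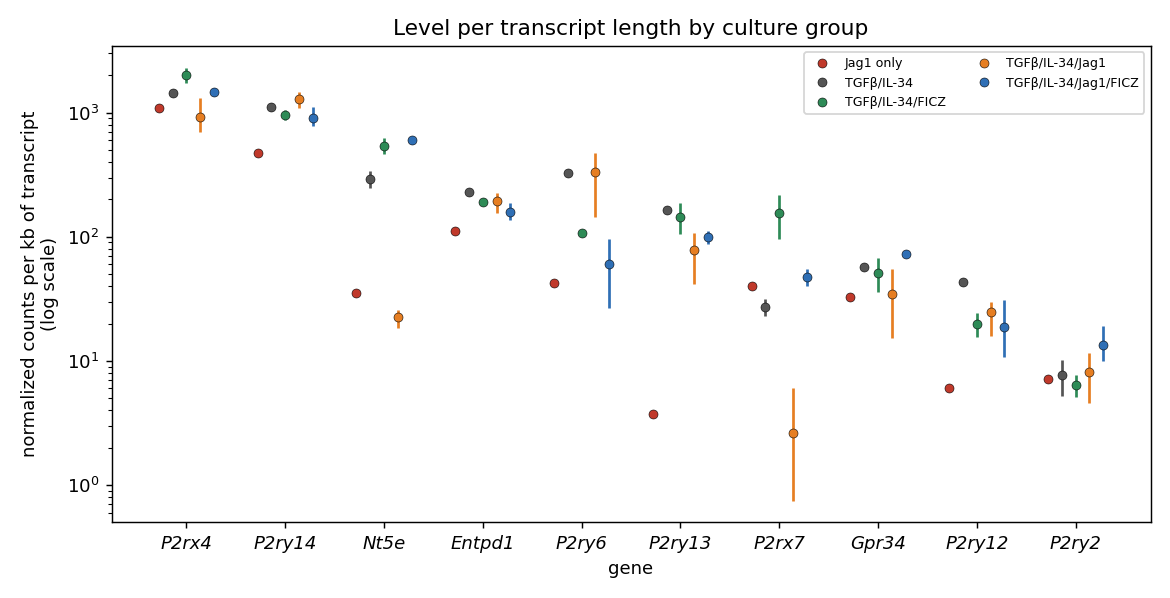
Level per kb of canonical transcript (log axis) of the 10 genes in the 5 culture groups, points for group means and lines from the lowest to the highest sample. Nt5e extends from 22.7 in TGFβ/IL-34/Jag1 to 604 in TGFβ/IL-34/Jag1/FICZ, whereas Entpd1 lies between 110 and 229.

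Over the 11 samples, the log2 profile of Nt5e was most like that of P2rx7 among the members (Pearson r 0.82), then P2rx4 (0.76). Entpd1 was most like P2ry14 (0.84), and P2ry12 had r of 0.79 with Entpd1 and 0.78 with P2ry13. The points share their libraries and fall into 5 groups, so these are descriptions. Among all genes with a mean of at least 50, the profiles most like Nt5e were Adgrg3 (0.995), Tns4 (0.985) and Cd96 (0.984), and those most like P2rx7 were Acsbg1 (0.971), Acp5 (0.967) and Mmp8 (0.967). The nearest to P2ry6 was S1pr2 (0.973), to P2ry13 Ptgs1 (0.996), to P2ry14 Tmeff1 (0.973), to P2ry12 Dhx29 (0.958), to Gpr34 E2f8 (0.960), to P2rx4 Rexo5 (0.954), to Entpd1 Arhgap39 (0.922) and to P2ry2 Rbm10 (0.853).

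Of 40 other genes of purinergic signalling, 39 were in the table and 30 passed the filter. With Jag1, 1 rose and 2 fell, beside 2.64% and 3.96% of all genes tested. With FICZ in the presence of Jag1, 7 rose and 5 fell, beside 10.9% and 6.71%. No gene of the list passed for FICZ without Jag1 or for the interaction in the limma fit, and 1 rose with Jag1 in the presence of FICZ, beside 1.41% of all genes. The list median was −0.14 with Jag1 and 0.31 with FICZ in the presence of Jag1, where the medians over all genes were −0.00 and −0.01.

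Among the receptors, P2rx1, an ATP channel of platelets and myeloid cells, rose with FICZ in the presence of Jag1 from 15.5, 24.4 and 19.1 to 145, 170 and 151 (log2 fold change 2.94, limma adjusted p 0.000118). P2ry1, an ADP receptor, rose from 40.0, 57.5 and 31.3 to 231, 225 and 166 (2.27, adjusted p 0.00165). Adora2a, an adenosine receptor, rose from 1518, 1733 and 997 to 3039, 3710 and 2863 (1.21, adjusted p 0.00515). In each of the 3, all samples of TGFβ/IL-34/Jag1/FICZ were above all samples of TGFβ/IL-34/Jag1. The Jag1 only sample held 97.2 of P2rx1, 173 of P2ry1 and 4783 of Adora2a, the last being the highest of all 11 samples. Gpr174, a lysophosphatidylserine receptor like Gpr34, rose from 0, 1.05 and 1.99 to 30.6, 17.7 and 5.12 (adjusted p 0.0176), which are few reads. Gpr171, which lies among P2ry12, P2ry13 and P2ry14, fell by 1.01 (adjusted p 0.00234), from between 2948 and 3182 to between 1284 and 1781.

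Panx1, a channel through which cells release ATP, rose with FICZ in the presence of Jag1 from 138, 141 and 103 to 622, 552 and 426 (2.05, limma adjusted p 0.000305). Of the enzymes, Entpd3, a relative of Entpd1, was highest in TGFβ/IL-34/Jag1, the group with the lowest Nt5e, at 4303, 1723 and 2036. It was at 273 and 158 in TGFβ/IL-34, 509 and 147 in TGFβ/IL-34/FICZ and 715, 258 and 444 in TGFβ/IL-34/Jag1/FICZ. In Jag1 only, where Nt5e was also low (147), Entpd3 was at 72.3, its lowest of all 11 samples. It rose by 3.57 with Jag1 (adjusted p 0.00605, which became 0.0940 with only replicate 1 of TGFβ/IL-34 kept) and fell by 2.50 with FICZ in the presence of Jag1 (adjusted p 0.00870). Enpp2, which makes lysophosphatidic acid, rose by 2.05 with FICZ in the presence of Jag1 (adjusted p 0.00103), and Enpp1, which splits ATP into AMP and pyrophosphate, fell by 1.73 (adjusted p 0.0475). Of the genes that take up or remove adenosine, Ada rose by 1.74 (adjusted p 0.0355), while Pnp fell by 1.18 (adjusted p 0.00454) and the transporter gene Slc29a3 by 0.97 (adjusted p 0.00583). The calls of Ada, Enpp1 and Gpr174 were lost when single samples were left out, with adjusted p up to 0.135, 0.180 and 0.0845.

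With Jag1 and no FICZ, Panx1 (log2 fold change −1.10, limma adjusted p 0.0342) and P2rx1 (−1.26, adjusted p 0.0418) fell, but neither call was stable. The Panx1 call was lost with each of the 5 samples left out (adjusted p 0.0561 to 0.357) and passed in 6 of 10 other settings. The P2rx1 call passed with 1 of 5 left out (adjusted p 0.0413 to 0.295) and in 4 of 10 other settings. Enpp2 rose with Jag1 in the presence of FICZ by 1.74 (adjusted p 0.0291), a call that passed with only 1 of 5 samples left out (adjusted p 0.00283 to 0.129) and in 6 of 10 other settings (up to 0.689).

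**Figure D4:**
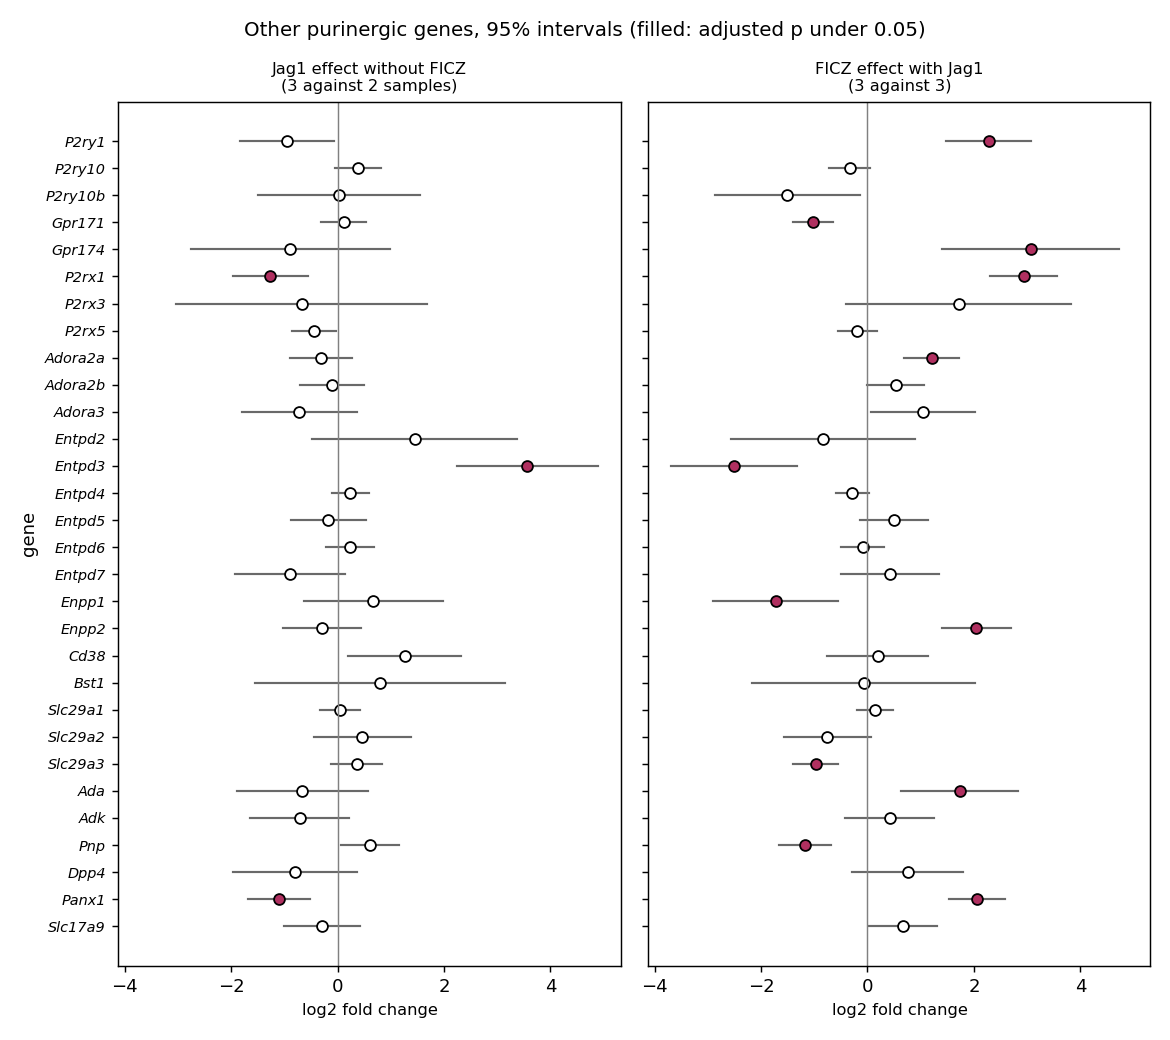
Fitted log2 fold changes (points) with 95% intervals (lines) of the 30 other purinergic genes tested, for Jag1 without FICZ and FICZ with Jag1, filled where the limma adjusted p was under 0.05. Entpd3 is filled at 3.57 on the left and −2.50 on the right, and P2rx1 at −1.26 and 2.94.

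Of 7 genes known to act downstream of P2X7 or in the inflammasome, all tested, Il1b rose with Jag1 (log2 fold change 1.88, limma adjusted p 0.0338), and Nlrp3 fell by 1.33 (adjusted p 0.0197) and Gsdmd by 0.61 (adjusted p 0.0313) with FICZ in the presence of Jag1. In both comparisons P2rx7 moved in the other direction. Of all genes tested, 2.64% rose with Jag1 and 6.71% fell with FICZ in the presence of Jag1. The calls of Il1b, Nlrp3 and Gsdmd were not tried under other settings or with samples left out. Of 15 genes of a microglia signature, to which P2ry12, P2ry13 and Gpr34 are commonly added, 13 were tested. With Jag1, 5 rose and 2 fell (2.64% and 3.96% of all genes), and with FICZ in the presence of Jag1, 3 rose and 7 fell (10.9% and 6.71% of all genes), while Sall1, a defining factor of microglia, was at 0 in all 11 samples. C1qa (4.01 and −3.28) was among those with opposite signs in these comparisons, which share samples. Tmem119 and Fcrls went the other way from C1qa. In TGFβ/IL-34, Tmem119 was at 158 and 227 and Fcrls at 155 and 175. They were at 54.6 to 75.6 and 3.06 to 41.8 in TGFβ/IL-34/Jag1. In TGFβ/IL-34/Jag1/FICZ they were at 253 to 490 and 87.6 to 111.

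Nt5e, P2rx7, P2rx1 and P2ry1 were higher in TGFβ/IL-34/Jag1/FICZ than in TGFβ/IL-34/Jag1, and so were summed markers of some other cells. The summed level of 9 granulocyte progenitor markers was 267 to 375 in TGFβ/IL-34/Jag1 and 8403 to 12973 in TGFβ/IL-34/Jag1/FICZ, and 384 to 1588 in TGFβ/IL-34 and 3143 to 4951 in TGFβ/IL-34/FICZ. With FICZ in the presence of Jag1, 7 of the 9 rose, beside 10.9% of all genes tested. In the same comparison Elane stood at 0 to 9.07 without FICZ and 2094 to 3694 with it, whereas Mpo was at 3.42 to 12.2 and 3.75 to 4.29. The sum of 8 mast cell and basophil markers was 1781 to 2941 and 9250 to 12191 in the same 2 groups. Of 6 tested, 4 were higher (10.9% of all genes), and Fcer1a and Tpsb2 were at 0 in both groups. The sum of 5 platelet and megakaryocyte markers was 540 to 579 and 4468 to 5609, nearly all of it from Itga2b, with Pf4 at no more than 20.96 and Gp1bb at 0 in both. The sum of 6 macrophage markers went the other way in these 2 groups, at 15496 to 23646 and 9797 to 13038. Of the 6, 1 rose and 2 fell (10.9% and 6.71% of all genes). In Jag1 only the mast cell and basophil sum was 6483, beside 6079 to 6341 in TGFβ/IL-34. Nt5e was at 147 in Jag1 only and at 1023 and 1404 in TGFβ/IL-34. The part of these cells in the levels of the purinergic genes was not tested. In bulk samples fewer cells of a type and less RNA per cell cannot be told apart.

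Markers of OP9 stroma also differed with the cultures. Of 12, 10 were at 0 in TGFβ/IL-34/FICZ and 6 in TGFβ/IL-34, and 2 (Dcn and Lum) in each of the 3 groups with Jag1, where Col1a1 stood at 37.4 to 1345. The summed level of the list was 811 to 1197 in TGFβ/IL-34 and 619 to 1341 in TGFβ/IL-34/Jag1. It was 3601 to 12216 in TGFβ/IL-34/FICZ and 14784 to 16829 in TGFβ/IL-34/Jag1/FICZ. Most of it was Thy1 in TGFβ/IL-34 (790 and 1185) and in the FICZ groups, but not in TGFβ/IL-34/Jag1 (177 to 284). The sums of the first 2 groups were thus alike while Col1a1 differed, at 3.84 and 0 in TGFβ/IL-34 and 84.1 to 369 in TGFβ/IL-34/Jag1. In TGFβ/IL-34/FICZ, the collagen genes of the list were at 0, Thy1 was at 12178 and 3578, and Nt5e was at 1916 and 2593. In TGFβ/IL-34/Jag1/FICZ, Col1a1 was at 222 to 1345 and Nt5e at 2313 to 2622. The part of stroma in the levels of the purinergic genes was not tested. Lymphocyte markers summed to at most 34.0 in any sample.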

How the data were processed

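Bulk RNA sequencing covered 11 samples in 5 groups, grouped by the sample labels. The authors quantified reads with salmon on an Ensembl GRCm39 transcript model, summed them per gene with tximport and deposited a normalized signal, counts scaled by DESeq2, here called normalized counts. Tool versions, any gene filter and the use of strand are not given in the sources used here. The same build, GENCODE vM39, gave coordinates, transcript lengths and promoters. Low values were whole multiples of 1 read (tolerance 0.1) for only 50.9% to 57.8% of values. In genes with 1 annotated transcript, from which the size of 1 read was estimated, this held for 81.3% to 98.7%. No count model was run, a choice made beforehand because normalized values that are not counts were expected.

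Values were taken as log2(value + 1) for the 13095 genes with at least 10 normalized counts in at least 2 samples, and fitted with limma 3.58.1 in R 4.3.3 (eBayes with trend), 1 mean per group, all 11 samples, 6 residual degrees of freedom, no covariate. Two-sided p-values were adjusted by Benjamini-Hochberg over all genes of a comparison, with a threshold of 0.05. Scripts were tested on simulated data. Error bars and p-values measure the spread between these samples, which carry 3 experiment codes and may not be separate animals. Members and gene lists were chosen with earlier results of these data known. All members were named, as were the genes of the purinergic list that passed, and the 3 genes of highest Pearson r with each member were sought, of which the text gives 1 to 3.

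Replicate numbers pair the 2 groups with TGFβ, IL-34 and Jag1. Their same-numbered samples share an experiment code, and across genes their deviations from the mean of the group correlated at 0.153, 0.122 and 0.166. For TGFβ/IL-34 replicate 1, the experiment code in the sample description differs from that in the authors' file. Alternatives were other normalization, pseudocounts, filters, weights and blocks, and each sample left out.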

Additional observations from a re-analysis of the deposited data

Results flagged for a closer look

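Nt5e was picked out because its FICZ difference in cultures with Jag1 and in cultures without it differed by a test of the difference itself. The log2 fold change with FICZ was larger by 3.84 with Jag1 (SE 0.32, limma interaction adjusted p 0.00174), from 4.73 against 0.89. All 3 samples with Jag1 and FICZ were above all 3 with Jag1 alone, and both FICZ samples without Jag1 were above both without either agent. No group held 4 or more samples, so no sample could be tested as an outlier.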

How the results depend on the processing

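Nt5e kept its direction and passed the threshold under all 10 other settings and with each sample left out, for Jag1 (log2 fold change −3.90 to −3.44), for FICZ with Jag1 (4.59 to 4.83) and for the interaction (3.61 to 4.07). P2rx7 and P2ry6 did so for FICZ with Jag1 (4.05 to 5.40 and −3.01 to −2.01). With array weights, 4 members passed for Jag1 (P2rx4 and P2ry13 added) and 5 for FICZ with Jag1 (P2rx4 and Gpr34 added). Over the 10 other settings, which include array weights, 721 to 2627 of all 13095 genes passed for Jag1 and 2237 to 4123 for FICZ with Jag1. In the main fit these numbers were 864 and 2312, so added members may go with more calls among all genes. With samples left out, 3 to 4 members passed for FICZ with Jag1, beside 1389 to 1821 of all genes. For Jag1, the P2rx7 call needed both TGFβ/IL-34 samples. Leaving out a sample from a group of 2 leaves 1, so no count of members is given for such fits. P2ry6 changed sign for Jag1 with array weights (0.0573), with the experiment code of the description (0.10) or of the authors' file (0.0156, an alternative chosen after seeing the data) as a block, and when samples were left out (−0.44 to 0.40). P2ry2 did so for Jag1 with the replicate block (−0.22) and when samples were left out (−0.40 to 0.54), and Nt5e for Jag1 with FICZ when samples were left out (−0.0486 to 0.39). The cause was not tested. With the replicate number as a block, 2, 4, 0, 0 and 1 members passed for Jag1, FICZ with Jag1, FICZ without Jag1, Jag1 with FICZ and the interaction, and P2rx4 for FICZ with Jag1 was the only member call it changed. Over the 10 other settings, of which that block is 1, the numbers over all genes for the last 3 were 0 to 5, 0 to 289 and 8 to 250.

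Over all genes, the number that passed was 864 for Jag1 (195 to 2627 over all alternatives), 2312 for FICZ with Jag1 (1389 to 4123), 3 for FICZ without Jag1 (0 to 5734), 264 for Jag1 with FICZ (0 to 5827) and 182 for the interaction (8 to 5497). The highest of the last 3 came without replicate 2 of TGFβ/IL-34/FICZ, where the spread of the remaining sample was assumed to be that of the other groups. P2rx7 in TGFβ/IL-34/Jag1 rested on 3.59 to 30.4 estimated reads, so its fold is imprecise.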
